A study of Homo sapiens with 12 samples.

Results

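T24 is an established cell line from a human bladder cancer. Its very broad domains of the histone mark H3K27me3 were taken as the consensus intervals of at least 100 kb on chromosomes 1 to 22. There were 649 such domains among 273664 consensus intervals, or 0.257% of the 252448 intervals on these chromosomes. ChIP-seq of the mark was available for 4 conditions with 1 library each: DMSO (vehicle), 5 µM GSK-126, 5 µM fenretinide, and the combination of both compounds at 5 µM, all after 72 h. GSK-126 inhibits EZH2, and fenretinide is a synthetic retinoid. With 1 library per condition from 1 cell line, there were no replicates of a condition, and no test between conditions was made. The intervals were built from peaks called in these same libraries, so the width of a domain depends on what was called in them.

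H3K27me3, trimethylation of lysine 27 of histone H3, is laid down by Polycomb repressive complex 2, of which EZH2 is the usual catalytic subunit. The mark is found at silent developmental genes, and in many differentiated and cultured cells it also spreads over long stretches of silent chromatin, within and between genes. Clusters of KRAB zinc-finger genes, by contrast, are known for the other large class of repressive chromatin, marked by H3K9me3. EZH2 inhibitors act on the methylation step, and existing methylation is lost as nucleosomes are replaced and cells divide.

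The sequences before 4 gene starts are shown because they lie inside the domains with the most extreme ratios, and because each kind of domain held starts rich and poor in CG dinucleotides. Each run is the 250 bases before a RefSeq start (GRCh38.p14), 5′ to 3′ on the strand of the gene, with CG dinucleotides in capitals. ZNF727 (chr7:64045184-64045433, plus strand, 6 CG) and ZNF585A (chr19:37172696-37172945, minus strand, 16 CG) lie in domains that were 16.3 and 15.2 times higher in library share with GSK-126 than with vehicle. ZNF423 (chr16:49857920-49858169, minus strand, 24 CG) and LPO (chr17:58238334-58238583, plus strand, 3 CG) lie in domains with ratios of 0.210 and 0.291.
ZNF727: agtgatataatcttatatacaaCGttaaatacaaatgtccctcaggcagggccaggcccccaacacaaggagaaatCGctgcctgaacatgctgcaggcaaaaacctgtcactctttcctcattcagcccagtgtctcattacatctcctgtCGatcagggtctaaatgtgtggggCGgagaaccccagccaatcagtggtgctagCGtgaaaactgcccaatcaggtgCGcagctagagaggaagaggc
ZNF585A: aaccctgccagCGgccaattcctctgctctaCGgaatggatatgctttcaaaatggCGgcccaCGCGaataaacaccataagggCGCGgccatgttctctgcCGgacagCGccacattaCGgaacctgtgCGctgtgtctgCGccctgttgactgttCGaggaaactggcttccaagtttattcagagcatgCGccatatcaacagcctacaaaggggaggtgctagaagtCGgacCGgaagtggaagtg
ZNF423: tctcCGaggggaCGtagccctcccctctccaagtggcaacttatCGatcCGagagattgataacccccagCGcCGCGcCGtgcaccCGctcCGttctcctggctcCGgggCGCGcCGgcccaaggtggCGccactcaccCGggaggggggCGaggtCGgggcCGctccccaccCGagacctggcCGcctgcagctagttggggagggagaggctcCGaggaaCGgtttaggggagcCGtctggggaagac
LPO: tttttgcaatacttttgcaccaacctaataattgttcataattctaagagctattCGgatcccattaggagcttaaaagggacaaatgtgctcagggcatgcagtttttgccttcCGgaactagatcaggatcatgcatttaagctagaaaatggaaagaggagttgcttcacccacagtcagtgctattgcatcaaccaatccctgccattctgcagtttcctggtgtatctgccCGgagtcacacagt

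The domains covered 109 Mb, which was 8.42% of the 1296 Mb in all intervals. Their median length was 139 kb and the longest reached 743 kb. There were 144 domains of at least 200 kb, 47 of at least 300 kb and 8 of at least 500 kb. Chromosome 7 held the most domains (57), followed by chromosomes 12 and 16 (52 each) and 20 (51). As a share of the interval length of a chromosome, the domains took 27% on chromosome 22, 26.1% on chromosome 20 and 24.8% on chromosome 19. Chromosomes 4 and 6 had 3 and 5 domains, which made up 0.776% and 0.884% of their interval length. Many domains were pieces of longer stretches. In 99 cases neighbouring domains were less than 10 kb apart, and joining them gave 550 runs.

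RefSeq protein-coding spans overlapped 418 of the 649 domains, leaving 231 with none, and 37 domains had no RefSeq gene of any kind. Another 110 domains lay wholly inside 1 protein-coding gene, and 32 overlapped 5 or more. The deposited peak annotation named 1404 nearest genes, of which 1125 matched a RefSeq symbol or synonym. Each deposited peak carries 1 annotation, which was taken for its whole length. In the vehicle library, peaks annotated as intergenic made up 57.6% of the peak length in the domains and those annotated as intronic 38%. Promoters made up 0.849% there, against 1.36% of the length of all autosomal peaks. The fenretinide library went the same way, with 0.832% against 1.09%. The direction was opposite in the GSK-126 library (1.17% against 0.992%) and in that of the combination (1.12% against 0.946%).

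Few of these intervals were continuous peaks. Peaks of at least 100 kb were found in 68 domains for vehicle and 56 for fenretinide, and in 45 for GSK-126 and 27 for the combination, and 144 domains had one in at least 1 library. The vehicle library had 7304 peaks in the domains and the GSK-126 library 11335. Fenretinide (7258 peaks) lay near vehicle, and the combination (10723) near GSK-126. The median share of a domain lying in peaks was 89.0% for vehicle and 90.2% for fenretinide, and 74.3% for GSK-126 and 81.7% for the combination. With peaks limited to the authors' score of at least 20, which has no stated scale, these medians were 85.9%, 54.0%, 86.5% and 58.4%. The longest peak of the vehicle library measured 343 kb, in the domain nearest to EDN3, which encodes an endothelin, and ZNF831 on chromosome 20. The longest peak with GSK-126 measured 453 kb and lay on chromosome 11 beside TRIM48 and the olfactory receptor gene OR4A5.

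The libraries held 15812933 to 18928836 fragments in intervals, and the median domain held 14.5 to 21.6 fragments per kb, so counting error was small for most of the domains. The share of all interval fragments that fell in the domains was 13.7% for vehicle, 13.0% for fenretinide and 11.1% for both GSK-126 and the combination. Ratios below compare these library shares, with 95% exact (Clopper-Pearson) intervals that cover counting error only. Domains at or above a ratio of 2 were called higher and those at or below 0.5 lower, provided that the interval excluded 1. The labels name no spike-in, so a ratio is relative to the rest of the library and not an absolute amount of the mark.

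With GSK-126, most of the domains held a smaller share of the library than with vehicle, and a minority held a much larger one. The ratio was below 1 in 479 of 649 domains and above 1 in 170. The median log2 ratio was −0.45, against −0.01 over all intervals with at least 20 fragments, and the range ran from −2.25 to 4.55. Intervals of 50 to 100 kb had a median of −0.36, so a shift of this kind was not particular to the domains. Calls among the domains were 62 higher (9.55%) and 114 lower (17.6%). Over all intervals 25.9% were called higher and 21.6% lower, and in intervals of 50 to 100 kb 9.79% and 20.6%. Higher calls thus made up a smaller share among the domains than over all intervals. Scaling the libraries to the 25% of intervals with the fewest fragments per kb shifted every log2 ratio by −0.77 and gave 37 higher and 414 lower calls, and the median of the domains was then −1.22.

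The order of the domains by fragment density was close to unrelated between vehicle and GSK-126. Spearman's rho over the 649 domains was −0.003 for vehicle and GSK-126, 0.959 for vehicle and fenretinide, and 0.946 for GSK-126 and the combination. These are descriptions over domains of the same 4 libraries, which share their sequence and mappability. A domain could pass the width rule through peaks of any library, so one with a low density in one library could enter through another. This choice of members can lower rho between libraries that differ, so the value near 0 holds for these domains only. In intervals of 50 to 100 kb the values were −0.07, 0.935 and 0.938. Domains of 200 kb or more had rho of −0.12 for vehicle and GSK-126.

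**Figure D1:**
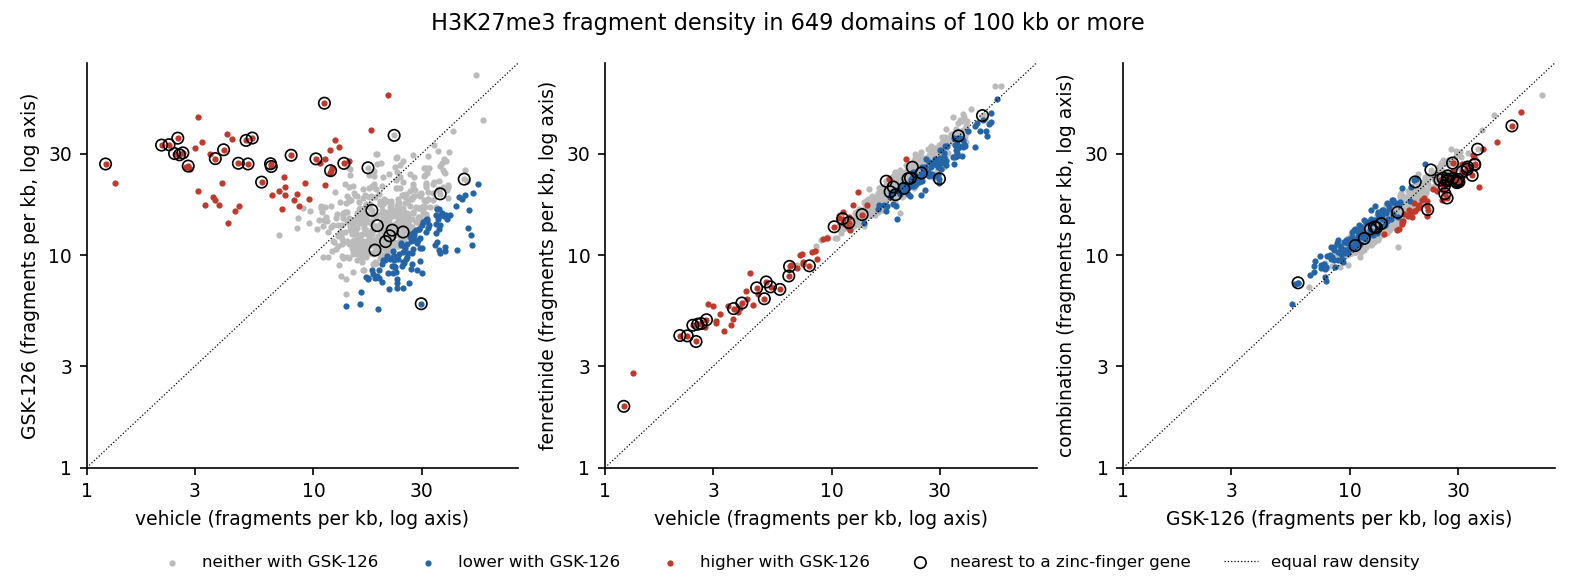
Fragments per kb in each of the 649 domains, on log axes, for vehicle against GSK-126, vehicle against fenretinide, and GSK-126 against the combination. Points are coloured by the call with GSK-126 against vehicle, black rings mark domains nearest to a gene with a ZNF, ZSCAN or ZFP symbol, and the dotted line marks equal raw density. Points follow the line in the middle and right panels (rho 0.959 and 0.946) and scatter in the left panel (rho −0.003).

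Width went together with density in all 4 libraries. The median density with vehicle was 7.84 fragments per kb in intervals under 10 kb, 18.0 at 50 to 100 kb and 21.8 at 200 kb or more. With GSK-126 the same medians were 7.41, 13.0 and 15.4. Higher calls with GSK-126 made up 25.6% of intervals under 10 kb, 23.1% at 10 to 50 kb, 9.79% at 50 to 100 kb, 8.71% at 100 to 200 kb and 12.5% at 200 kb or more. Lower calls went from 22.9% to 14.6% over the same classes. Narrow intervals hold fewer fragments, so their ratios carry more counting error than those of the domains.

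**Figure D2:**
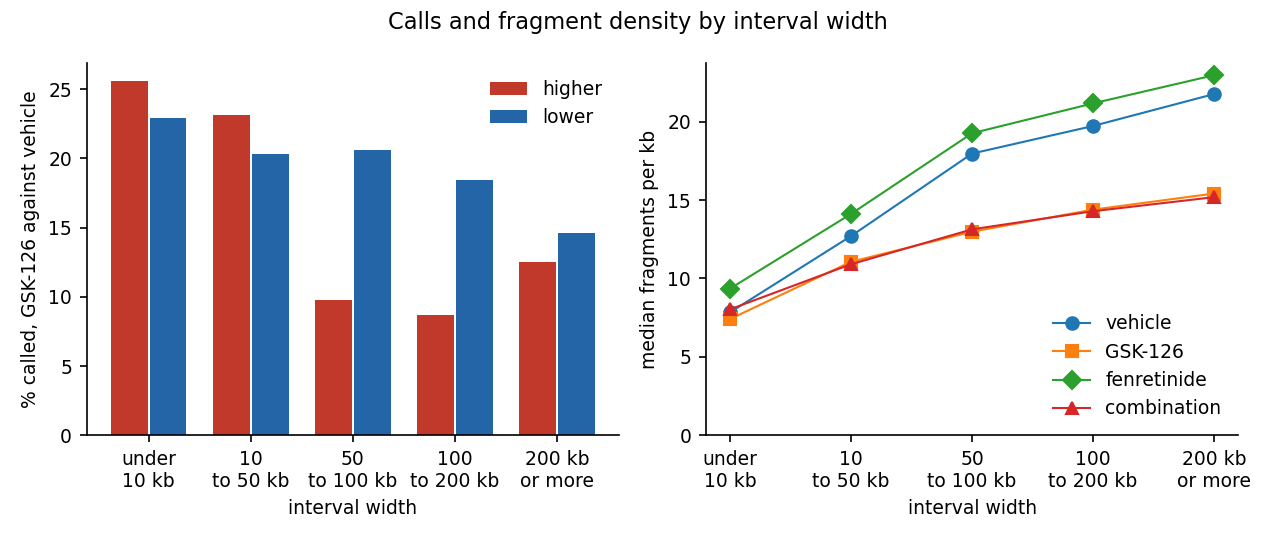
Left, the percent of intervals called higher or lower with GSK-126 against vehicle by interval width, over intervals with at least 20 fragments. Right, the median fragments per kb in each library by width, where the GSK-126 and combination lines lie together and reach 15.4 and 15.2 at 200 kb or more, below vehicle (21.8) and fenretinide (23.0).

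The 62 domains called higher with GSK-126 had little mark with vehicle, a direction that the call itself favours. Their median density was 5.26 fragments per kb with vehicle, 7.28 with fenretinide, 26.8 with GSK-126 and 21.6 with the combination. The median share of their length in peaks was 16.6% with vehicle and 97.8% with GSK-126, and in 24 of them vehicle peaks covered under 10%. These domains spanned 10.9 Mb. Of the 62, 29 overlapped no protein-coding gene. Chromosome 19 held 15 of them among its 43 domains, and chromosome 7 held 10 among its 57, the most domains of any chromosome. Chromosome 21 had 3 among its 10 domains and chromosome 22 had 4 among its 18.

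Genes with ZNF, ZSCAN or ZFP symbols, which encode zinc-finger DNA-binding proteins, many of them with a KRAB repressor domain, were nearest to peaks in 34 of the 649 domains. Zinc-finger genes with other symbols, such as MYT1L and PRDM16, are not in this list. Of these 34, 22 were called higher with GSK-126, 1 lower and 11 neither. Their median log2 ratio was 2.03, beside −0.45 over all 649 domains. The 22 higher ones had a median of 13.5% of their length in vehicle peaks and 98.7% in GSK-126 peaks, and 2 of them had at least 50% in vehicle peaks. Most of the 22 thus reached the width rule through peaks of the libraries where they are high, so their ratios describe them and support nothing about the class. Under the scaling to low-density intervals 19 were called higher and 9 lower, with a median of 1.27. The 615 domains with no gene of this list nearest had a median of −0.47. Where the deposited annotation named 2 or more genes of the list (19 domains), 18 were higher, with a median ratio of 5.53. Where it named 1 (15 domains), 4 were higher and 1 lower, with a median ratio of 0.762. That count is of nearest genes only, since the domains of ZNF141 and ZNF727 each overlap another zinc-finger gene, and the split was made after the values were seen. On chromosome 19, 13 of 17 domains of this list were called higher, whereas the other 26 domains of that chromosome had 2 higher and 10 lower calls.

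The highest ratio belonged to a domain on chromosome 4 (chr4:338685-472414, 134 kb) over parts of ZNF141 and ZNF721, a pair of zinc-finger genes that face each other. Vehicle gave 162 fragments there, GSK-126 3585, fenretinide 260 and the combination 2480. The GSK-126 and combination libraries were far above the others, and the ratio with GSK-126 was 23.5 (95% interval 20.05 to 27.6). The start of ZNF141 lies 871 bp before the first base of the domain. Vehicle peaks covered 0.203% of the domain and GSK-126 peaks 96.0%.

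On chromosome 19, the domain over ZNF420, ZNF585A and ZNF585B held 263, 3764, 475 and 2957 fragments in the vehicle, GSK-126, fenretinide and combination libraries. Its ratio with GSK-126 was 15.2 (13.4 to 17.3). A neighbouring domain over ZNF570, ZNF793, ZNF540 and ZNF571 held 290, 4077, 451 and 3057 fragments, for a ratio of 14.9 (13.2 to 16.9). The widest zinc-finger domain was 584 kb long (chr19:22168539-22752418) and covered ZNF676, ZNF729, ZNF98, ZNF492 and ZNF99. It held 1551, 17651, 2782 and 12902 fragments and had a ratio of 12.1 (11.5 to 12.7). In all 3 of these domains the GSK-126 and combination counts stood well above both others. The domain with the most zinc-finger genes (chr19:56351544-56789291, nearest to ZNF542) was 4.25 times higher with GSK-126 (2853 to 11421 fragments). The adjoining domain over PEG3, an imprinted gene expressed from the paternal allele, had a ratio of 1.95 (1.86 to 2.03) and was called neither.

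Chromosome 7 had 4 zinc-finger domains, all called higher, with ratios whose median was 12.6. The domain of ZNF727 and ZNF722 (chr7:63979472-64105219) held 269, 4136, 526 and 3185 fragments in the same order of libraries, a ratio of 16.3 (14.4 to 18.5). The domain of the pseudogene ZNF733P (273 kb) was 13.0 times higher and that of ZNF716 and MIR3147 (246 kb) 12.2 times higher. At the other end stood ZNF423, a zinc-finger factor without a KRAB domain that acts in development, whose domain had the lowest ratio of all 649.

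A set of higher domains lay in the imprinted stretch of chromosome 15 that is linked to Prader-Willi syndrome, where small nucleolar RNA genes are transcribed from the paternal allele. The domain of SNORD116 and IPW (chr15:25015485-25122139) held 142 fragments in the vehicle library, 2338 in the GSK-126 library, 299 in the fenretinide library and 1623 in that of the combination. Its ratio with GSK-126 was 17.5 (14.7 to 20.8). The SNORD115 domain (chr15:25157890-25269574) held 466, 4121, 755 and 2334 fragments, for a ratio of 9.38 (8.52 to 10.3). The domain of SNRPN and SNURF, upstream of both, was only just past the threshold, at 2.04 (1.92 to 2.16), with 1661 and 3189 fragments. All 3 had larger counts with GSK-126 than with the combination.

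Of the 62 higher domains, 40 had no gene of the ZNF, ZSCAN and ZFP list nearest. A domain on chromosome 17 nearest to MIR4522 (chr17:26750592-26880254) held 402, 5760, 632 and 4403 fragments in that order, a ratio of 15.2 (13.7 to 16.9). The domain beside TRIM48 and OR4A5 on chromosome 11 (482 kb) held 2112, 16958, 3967 and 13992 fragments, a ratio of 8.51. Among developmental genes, the domain of SOX11, a neural transcription factor, went from 648 fragments with vehicle to 3369 with GSK-126, a ratio of 5.51. The domain inside DSCAM, an adhesion molecule of neurons, had a ratio of 3.81. The domain of the α protocadherins, cell-surface proteins that give neurons their identity, had 2.82, and the one beside BMP2, a bone morphogenetic protein, 2.39. Each of these domains had a GSK-126 count above that of the combination. The α protocadherin and BMP2 domains were not called higher under the scaling to low-density intervals.

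**Figure D3:**
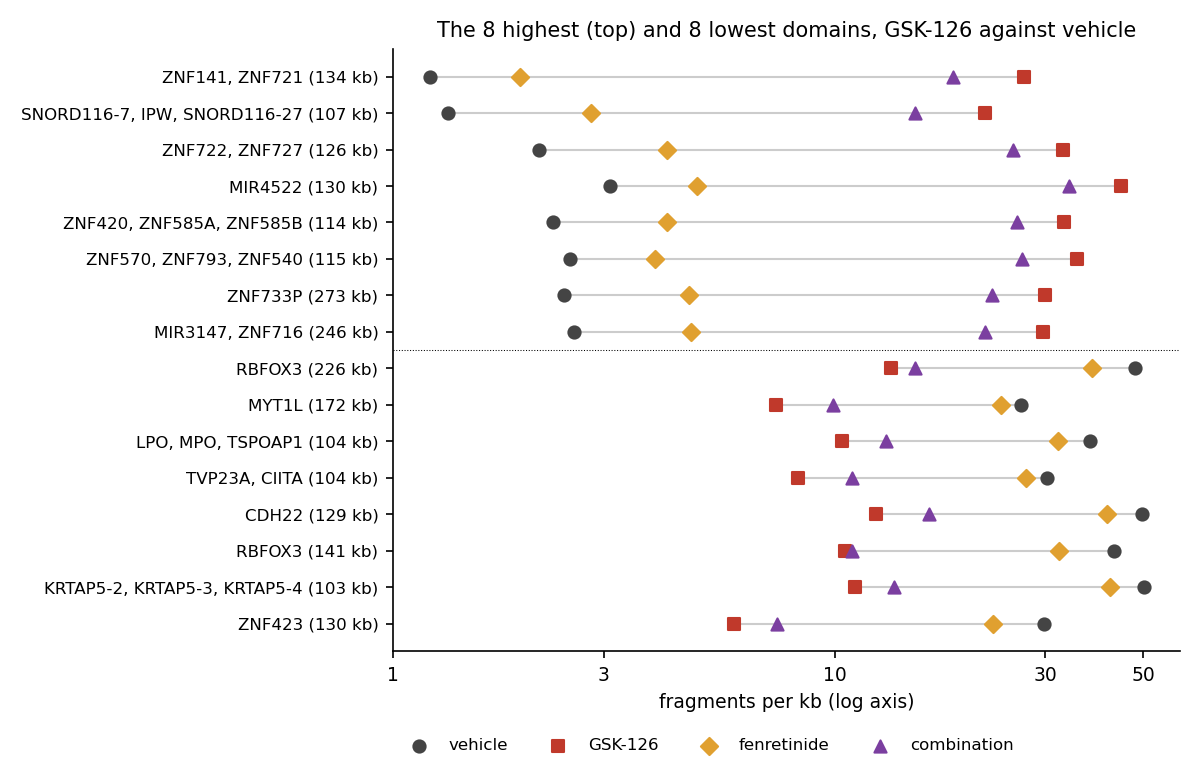
Fragments per kb (log axis) in the 4 libraries for the 8 domains with the highest (above the dotted line) and the 8 with the lowest GSK-126 to vehicle ratios, chosen on that ratio. In all 16 the fenretinide point is the one next to vehicle and the combination point the one next to GSK-126.

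The 114 domains called lower with GSK-126 had a median density of 27.4 fragments per kb with vehicle, 24.7 with fenretinide, 10.6 with GSK-126 and 12 with the combination. The call itself favours a high vehicle value, and with vehicle these domains ran from 13.9 to 53.3 fragments per kb. The median share of their length in peaks was 96.7% with vehicle and 53.2% with GSK-126. They covered 19 Mb, and 25 of them overlapped no protein-coding gene. Chromosome 17 had 13 lower calls among its 29 domains, and its median log2 ratio of −0.79 compares with −0.45 over all domains.

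The ZNF423 domain (chr16:49770626-49900533) held 3880 fragments in the vehicle library, 767 in the GSK-126 library, 2967 in the fenretinide library and 962 in that of the combination. Its ratio with GSK-126 was 0.210 (0.194 to 0.227), and the share of the domain in peaks was 99.3% with vehicle and 24.3% with GSK-126. The KRTAP5 domain on chromosome 11, a cluster of keratin-associated genes of the hair matrix, held 5159, 1145, 4324 and 1399 fragments in the same order, a ratio of 0.235 (0.221 to 0.251). A pair of adjoining domains inside RBFOX3, which encodes the neuronal splicing factor NeuN, had ratios of 0.261 and 0.296. The first held 6061, 1491, 4543 and 1543 fragments and the second 10870, 3035, 8686 and 3435. In all 4 of these domains both libraries with GSK-126 lay below both libraries without it.

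CDH22, a cadherin gene, lay in a domain of 6376, 1597, 5311 and 2099 fragments in the same order of libraries, a ratio of 0.266 (0.251 to 0.281). The domain of CIITA, the master regulator of MHC class II genes, and TVP23A held 3154, 864, 2834 and 1144 fragments, a ratio of 0.291. The domain of the peroxidase genes MPO and LPO held 3952, 1083, 3348 and 1363 fragments, also a ratio of 0.291. MYT1L, a neuronal zinc-finger factor, had 4547, 1262, 4093 and 1703 fragments and a ratio of 0.294.

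The gene lists are read beside the 9.55% higher and 17.6% lower over all 649 domains, and beside the scaling to low-density intervals, under which 63.8% of all domains were lower. Among the lists with at least 3 domains by nearest gene, matrix genes had the lowest median. All 8 domains nearest to collagen, MMP or ADAMTS genes had ratios below 1, 5 were called lower and none higher, and their median log2 ratio was −1.30. With starts within 10 kb 2 of these domains were left, with a median of −1.04. Gene spans of this list overlapped 8 domains, with 1 higher and 5 lower calls and a median of −1.30. The lowest by nearest gene was COL26A1 at 0.317, and the domain of COL5A1 and OLFM1, the second widest of all, stood at 0.425. The 7 domains of neuronal adhesion genes split into 2 higher, among them DSCAM, and 4 lower, among them its paralogue DSCAML1 at 0.348 (5802 to 1904 fragments). Immune receptor and cytokine genes had 3 lower and no higher calls in 12 domains (25% lower, median −0.90, and 11 lower under that scaling), with CD33 and its SIGLEC neighbours lowest at 0.389 and the scavenger receptor gene CD163 highest at 1.02.

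Ion channel genes had 3 lower and no higher calls in 23 domains (13% lower, median −0.71), a lower share below that of all domains, and 20 lower under the same scaling. Homeobox factors other than HOX had 3 lower and no higher calls in 12 domains (25% lower, median −0.73), and 10 lower under that scaling. KCNH2, a cardiac potassium channel gene, was lowest among the channels at 0.388, and KCNJ6 was highest at 1.67. CUX2 was lowest among the homeobox genes at 0.298 and IRX1 highest at 1.5. The SOX, FOX, TBX, PAX, GATA and neural bHLH list had 1 higher and 2 lower calls in 14 domains, from PAX7 at 0.386 to SOX11 at 5.51, and 7 lower under that scaling. No HOX gene was nearest to a peak in any of the 649 domains, and no HOX span overlapped one.

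Keratin and keratin-associated genes had 2 lower calls in 4 domains and no higher one. The type II keratin cluster on chromosome 12 filled a domain of 330 kb with KRT1 and KRT2, at a ratio of 0.523 with 7460 and 3678 fragments, and a second one with KRT5 and KRT6A at 0.558. KRT5 is a keratin of basal urothelial cells. Olfactory receptor genes had 1 higher and 1 lower call in 16 domains, with a median of −0.55, and 12 lower under the scaling to low-density intervals. The 20 domains of solute carriers had 1 higher and 3 lower calls (15% lower, median −0.63), and 15 lower under that scaling. Gene spans of solute carriers also overlapped 20 domains, with 3 higher and 2 lower calls, so the balance of calls depended on the gene link. The 82 domains nearest to a microRNA gene had 4 higher and 16 lower (19.5% lower, close to all domains, median −0.42), and 55 lower under that scaling. The remaining lists had 3 domains or fewer by nearest gene, apart from glutamate and GABA receptors with 7 (1 higher, 1 lower). Spans of very long fragile-site genes overlapped 21 domains, of which 2 were called higher and 0 lower, with a median of −0.10. Spans of vomeronasal receptor genes, 22 in all with 2 annotated as protein-coding, overlapped 14 domains, of which 11 were called higher and 7 also had a gene of the ZNF, ZSCAN and ZFP list. By nearest gene, the link used for the other lists except where stated, there was 1 domain of vomeronasal receptors. The 14 domains had a median of 4.91 fragments per kb with vehicle and 28.9 with GSK-126. Peaks of the libraries where they are high counted toward their width, so these calls describe them and support nothing about the class.

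**Figure D4:**
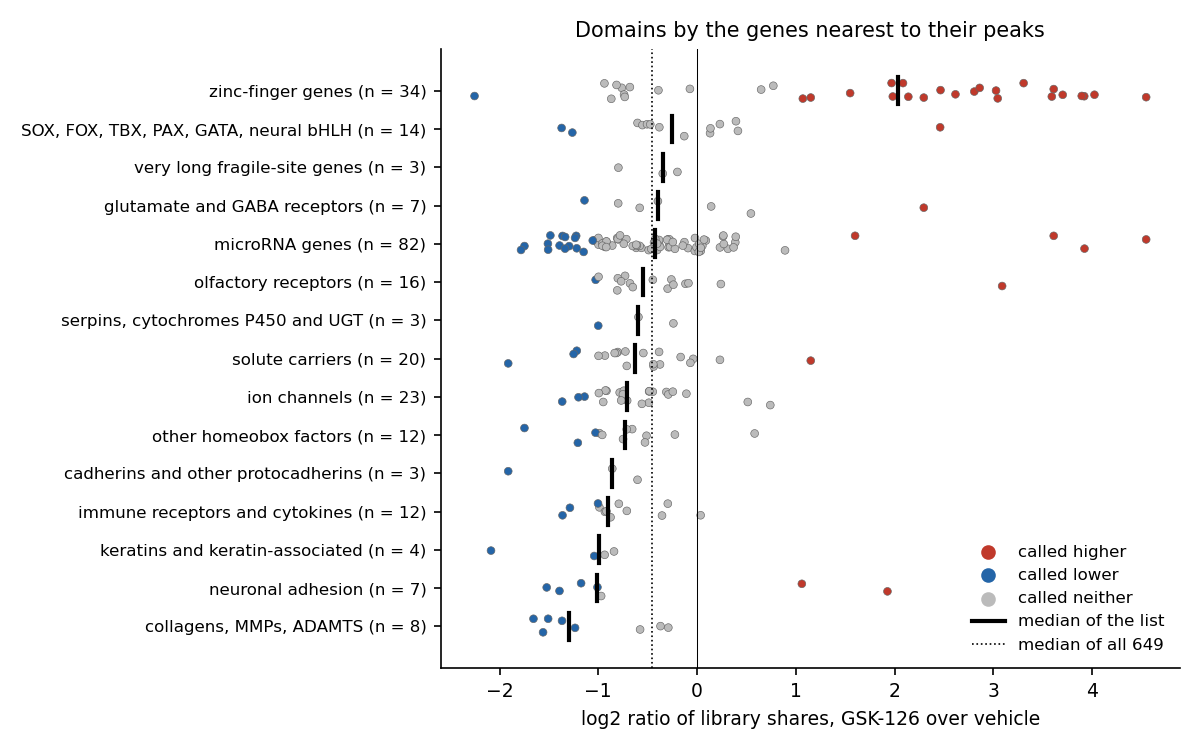
Log2 ratios of GSK-126 over vehicle for the domains of each gene list with at least 3 domains, assigned by the gene nearest to their peaks, each point 1 domain with a small vertical offset. Black bars mark list medians and the dotted line the median of all 649 (−0.45). The zinc-finger list has a median of 2.03, and the 14 other lists have medians below 0.

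Fenretinide alone left the domains close to vehicle. No domain was called higher or lower. Over all intervals 3.31% were called higher and 2.16% lower, and in intervals of 50 to 100 kb 0.469% and 0%. The median log2 ratio of the domains was −0.02, and the range ran from −0.59 to 0.93. The highest ratio was at SNORD116 (1.91), followed by a domain nearest to LOC101927151 on chromosome 19 (1.86), which held 359 fragments with vehicle and 737 with fenretinide. ZNF727 had 1.77 and ZNF733P 1.73. The lowest were MROH5 on chromosome 8 at 0.665 (3429 to 2521 fragments) and the 535 kb domain over PRDM16, a transcription factor of brown fat and blood stem cells, at 0.675 (25989 to 19379). Both of these counting intervals excluded 1, so the libraries differed by more than counting error without reaching the 2-fold rule.

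With the combination, 53 domains (8.17%) were called higher and 64 (9.86%) lower against vehicle. Over all intervals these shares were 24.1% and 15.8%, and in intervals of 50 to 100 kb 8.68% and 12.4%. The median log2 ratio of the domains was −0.39. The scaling to low-density intervals gave 31 higher and 417 lower calls, DESeq2 size factors gave 49 and 103, and TMM 48 and 112. The highest ratio was again at ZNF141 (16.6), then ZNF727 (12.8), SNORD116 (12.4) and ZNF585A (12.2). The lowest were ZNF423 (0.269), RBFOX3 (0.276) and KRTAP5 (0.294). LINGO1, a neuronal receptor gene, and COL23A1 were also among the 8 lowest, at 0.332 and 0.355. This comparison shares the vehicle library with the one for GSK-126 alone, so its values are given beside that one and not as a repeat of it.

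Against GSK-126 alone, no domain was called either way with the combination. Over all intervals 2.48% were called higher and 1.82% lower, and in intervals of 50 to 100 kb 0% either way. The median log2 ratio of the domains was 0.06, and the values ran from −0.79 to 0.46. DESeq2 size factors and TMM turned the sign of this median, to −0.07 and −0.05. The lowest ratio was at SNORD115 (0.579, with 4121 fragments for GSK-126 and 2334 for the combination), and the highest was at MYT1L (1.38, 1262 and 1703). CACNA1A, a calcium channel gene, had 1.36 (2022 and 2685).

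Against fenretinide alone, the combination had 45 domains higher (6.93%) and 18 lower (2.77%). Over all intervals 18.6% were called higher and 12.1% lower, and in intervals of 50 to 100 kb 7.21% and 4.57%. The median log2 ratio of the domains was −0.35. The scaling to low-density intervals gave 31 higher and 335 lower calls. ZNF141 was highest at 11.4, from 260 to 2480 fragments, followed by the MIR4522 domain at 8.34. KRTAP5 (0.387), ZNF423 (0.388) and RBFOX3 (0.407) were lowest.

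Each compound has a pair of comparisons that share no library, once alone and once on top of the other compound. Both pairs use the same libraries, so in each domain the log2 ratio changes equally from alone to on top for both compounds. The results below for GSK-126 and for fenretinide are therefore not separate from each other. With 1 library per condition, each ratio also holds any difference between the cultures and libraries, so an effect of a compound cannot be told apart from these. For GSK-126, the log2 ratios against vehicle and those of the combination against fenretinide had a Spearman's rho of 0.973 over the 649 domains, with a slope of 0.684 for the second on the first. All 45 domains called higher and all 18 called lower in the second comparison carried the same call in the first, which was 72.6% of its 62 higher and 15.8% of its 114 lower calls. The ratios were thus closer to 1 on top of fenretinide. For fenretinide, the ratios against vehicle and those of the combination against GSK-126 had a rho of −0.607. The sign was the same in both for 166 of 649 domains (25.6%). These fenretinide ratios were small, with a median absolute log2 ratio of 0.11 alone and 0.12 on top of GSK-126. DESeq2 size factors and TMM moved the median of the first and turned the sign of that of the second. SNORD116 and ZNF727, with ratios of 1.91 and 1.77 for fenretinide alone, had 0.709 and 0.787 on top of GSK-126. MYT1L had 0.815 for fenretinide alone and 1.38 on top of GSK-126. These correlations are over domains, which are not independent replicates. They and the shared calls were not computed over all intervals or narrower ones, so none is shown to be particular to the domains.

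**Figure D5:**
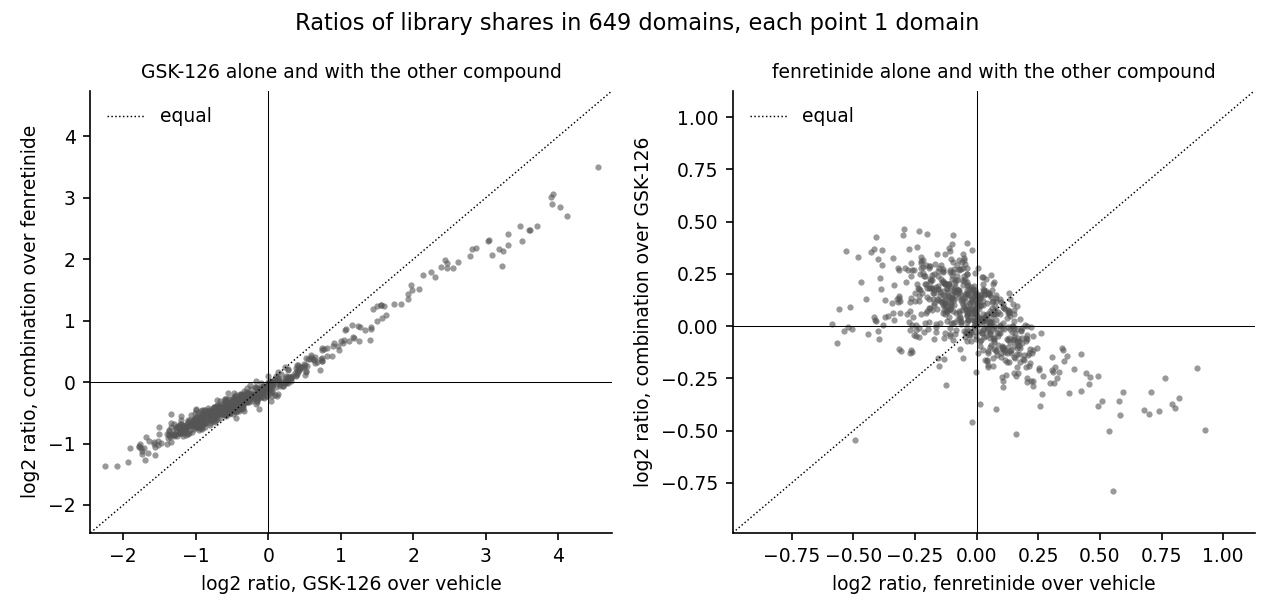
Log2 ratios of library shares in the 649 domains for GSK-126 (left) and fenretinide (right), each alone on the x axis and on top of the other compound on the y axis, with a dotted line of equality. On the left the points follow a slope of 0.684, and on the right they run downward with a rho of −0.607, within a narrower range.

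The spread of density between domains was widest with vehicle. The domain at the 90th percentile had 2.89 times the fragments per kb of the domain at the 10th in the vehicle library. The same ratio was 2.37 for fenretinide, 2.57 for GSK-126 and 2.12 for the combination. The lowest domain had 1.21 fragments per kb for vehicle, 1.94 for fenretinide, 5.57 for GSK-126 and 5.90 for the combination.

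Gene starts inside the domains had fewer CG dinucleotides than starts in general. The 250 bases before 21156 protein-coding starts in RefSeq held a median of 17 CG, and 65.8% of them held 10 or more. The 531 starts inside the domains, from 415 genes, held a median of 7, and 43.7% held 10 or more. The share with 10 or more was 67.7% for the 62 starts in domains higher with GSK-126, 43.8% for the 146 in lower domains and 39.0% for the 323 in the rest. Starts of 1 gene or 1 cluster share sequence, so these are descriptions. CG was counted on 1 strand only, as it reads the same on both.

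Starts followed the domains they lie in, which were sorted by counts of the same libraries, so these values are descriptions. With vehicle, 8 of the 62 starts in higher domains (12.9%) lay in a peak, and with GSK-126 59 did (95.2%). The fenretinide library had 14 (22.6%) and the combination all 62. For the 146 starts in lower domains the counts were 142 for vehicle (97.3%) and 132 for fenretinide, and 90 for GSK-126 (61.6%) and 101 for the combination. The starts of ZNF585A and ZNF727, whose sequences are printed above, lay in a peak with GSK-126 and the combination only. That of ZNF423 lay in a peak in every library except GSK-126, and that of LPO in all 4.

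Of the starts in lower domains that lay in a vehicle peak, 46 of 61 (75.4%) with 10 or more CG also lay in a GSK-126 peak, and 42 of 81 (51.9%) of those with fewer. In domains called neither the counts were 108 of 117 (92.3%) and 128 of 182 (70.3%). Whether peak calling reads CG-rich and CG-poor sequence alike in these libraries was not tested.

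The 10 widest domains showed every kind of change with GSK-126. The widest lay over FAM19A5 (TAFA5 in RefSeq), a secreted brain protein gene on chromosome 22, with 21774, 10861, 19987 and 9817 fragments in vehicle, GSK-126, fenretinide and combination, a ratio of 0.529 for GSK-126. The COL5A1 and OLFM1 domain on chromosome 9 (649 kb) held 24995, 10011, 21531 and 10129 fragments. The domains of KIF26A on chromosome 14 and PRDM16 on chromosome 1 had ratios of 0.428 and 0.357, and the zinc-finger domain around ZNF98 was the one called higher among the 10. SEZ6L with MYO18B (0.655), SYNDIG1 (0.727), KCNK9 (0.817), SHISA9 (0.930) and ISX (1.21) were called neither. Joined across gaps under 10 kb, the FAM19A5 domain belonged to a run of 4 domains over 1774 kb, the longest of the 21 runs with 3 or more members.

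At the edge of the width rule, the 3 narrowest domains were 100.2 to 100.4 kb long, nearest to LINC00992, CA10 and MIR7160, with ratios of 3.56, 0.824 and 0.396 for GSK-126. The 3 widest intervals just below it, of 99.7 to 99.8 kb, had ratios of 0.444, 0.786 and 0.307. Neighbouring domains share a chromatin stretch. After joining the 649 domains into 550 runs, 55 runs (10.0%) were higher and 94 (17.1%) lower with GSK-126.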

How the data were processed

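H3K27me3 ChIP-seq was analysed in 4 libraries of T24 cells, 1 per condition. Input and RNA libraries are also named by the labels and were not analysed here. Raw fragment counts for consensus intervals, as the authors deposited them, came from featureCounts 2.0.1 per the file headers, counting read pairs without strand with a minimum overlap fraction of 0.2. Per the submitters' processing notes the caller was MACS2 2.1.0. Each library has its own deposited peak list, with nearest genes from HOMER per its header, the authors' peak score with no stated scale, and other deposited values such as the distance to the nearest start site. The build was GRCh38 per the submitters' processing notes. The aligner and the peak-calling control are not given in the sources used here.

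Membership used End minus Start in the table. Coordinates are 1-based. The ratio of library shares used each library's total over all intervals (15812933 to 18928836), log2 ratios a pseudocount of 0.5, and intervals in the background needed 20 fragments in both libraries together. Tools were Python 3.11.15, pandas 2.3.3, scipy 1.17.1, R 4.3.3, DESeq2 1.42.0 and edgeR 4.0.16, the last 2 for size factors and TMM only. The calling rule was checked on simulated data: with Poisson counts for the 649 domains of GSK-126 against vehicle, 200 of them changed by 0.25, 0.4, 2.5 or 4 times, all of each size were called right, and none of the 449 others was called. This check holds counting error only. Its folds lay clear of the 2-fold rule and every domain held at least 1838 fragments in vehicle and GSK-126 together. It therefore shows that the rule runs as written and says nothing about domains near the rule. No p-value was computed. Gene starts and spans came from RefSeq (GRCh38.p14), and 81.9% of 79288 vehicle peaks had a deposited start-site distance within 1000 bp of the RefSeq one.

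Domains were named by rule: the 10 widest, the 8 highest and 8 lowest against vehicle, the 3 highest and 3 lowest for the combination against each compound, per list the domain with most genes and its extremes, and the 3 at the width edge. SNRPN, PEG3 and the longest run were chosen after their values were seen. The members and gene lists were chosen with earlier results of these data known. Alternatives were other scalings, a ratio of 1.5, widths of 50 and 200 kb, other gene links and, added after seeing the data, joined neighbours.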

Additional observations from a re-analysis of the deposited data

Results flagged for a closer look

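Among intervals of at least 100 kb, 4 lay outside chromosomes 1 to 22, and 3 of them, on unplaced or unlocalised GRCh38 sequences, were past the calling rule. They entered none of the comparisons above. The interval on 14_GL000225v1_random was 25.8 times higher in library share with GSK-126 than with vehicle, 3.80 times with fenretinide and 15.5 times with the combination, from 391 fragments with vehicle to 9500 with GSK-126. The interval on Un_KI270442v1 was 4.35 times higher with GSK-126 and 3.40 times with the combination. The interval on Un_KI270743v1 was 5.67 and 4.11 times higher. Such sequences are often repetitive, and the treatment of reads that map to several places is not given in the sources used here. An interval on chromosome X was called neither.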

How the results depend on the processing

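No paired analysis was possible because each condition had 1 library. The labels name no spike-in, so the scaling decides how many domains are called lower, and counting intervals do not hold the spread between cultures. DESeq2 size factors, TMM, the other widths and joined neighbours kept the percent of domains called within 1.5 times, except for the combination against vehicle, where lower calls went from 9.86% to 15.9% (DESeq2) and 17.3% (TMM), and for fenretinide at a width of 50 kb, where 0.34% of intervals were called higher. Scaling to low-density intervals gave 5.7% higher and 63.8% lower with GSK-126, 4.78% and 64.3% with the combination against vehicle, and 51.6% lower for the combination against fenretinide. A ratio of 1.5 gave 41.6% lower with GSK-126, 1.69% higher and 0.154% lower with fenretinide, 32.8% lower with the combination against vehicle, 0.154% lower against GSK-126 and 24% lower against fenretinide. The cause was not tested. The median for the combination against GSK-126 turned to −0.0653 (DESeq2) and −0.048 (TMM), and that of glutamate and GABA receptor domains with GSK-126 turned to 0.55 with starts within 10 kb, which left 3 domains. Of the other medians under alternatives, 48 stayed within the binomial interval of the median or, for lists and peak shares, within 1.5 times, and 18 moved without a change of sign.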
